A study of Mus musculus with 8 samples.

Results

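The CXC chemokine genes Cxcl1, Cxcl2, Cxcl5, Cxcl9, Cxcl10, Cxcl12, Cxcl14 and Cxcl16 were followed in sorted stroma of the small intestine of mice. These 8 genes were taken by symbol from the 53801 rows of the deposited count table, each matched 1 row, and all 8 were among the 15643 genes with enough counts to test. The cells came from LTβRfloxPDGFRα/YFP mice, in which the lymphotoxin β receptor gene is floxed, and all of them were CD45-CD31- (outside the leukocyte and endothelial gates) and YFP+. Sorting on surface PDGFRα, a platelet-derived growth factor receptor of fibroblasts, gave 4 YFP+PDGFRα- and 4 YFP+PDGFRα+ libraries, numbered 1 to 4 in each fraction. Both fractions thus share that allele, and mice without it were not analysed here. The sources used here do not give the driver of recombination, the age and sex of the mice, or whether each library is 1 mouse, so p-values measure the spread between these libraries only.

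CXC chemokines are small secreted proteins that direct leukocytes through G protein-coupled receptors. Cxcl1, Cxcl2 and Cxcl5 encode ligands of CXCR2 that attract neutrophils and are induced through NF-κB by microbial products, interleukin-1 and interleukin-17. Cxcl9 and Cxcl10 encode interferon-induced ligands of CXCR3, a receptor of activated T cells and natural killer cells. Cxcl12 encodes the constitutive ligand of CXCR4, which ACKR3 scavenges. Cxcl14 encodes a chemokine of epithelium and stroma whose receptor is unsettled, and Cxcl16 encodes a membrane-anchored ligand of CXCR6 that the protease ADAM10 can release.

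Of the 8 genes, 5 lie on chromosome 5 (GRCm38), in separate clusters. Cxcl5 (90759360 to 90761624), Cxcl1 (90891241 to 90893115) and Cxcl2 (90903871 to 90905938) are on the plus strand, with 10756 bases between Cxcl1 and Cxcl2. Cxcl9 (92321347 to 92328079) and Cxcl10 (92346638 to 92348889) are on the minus strand, with 18559 bases between them. The sequences before the start sites of these neighbours are shown because Cxcl1 and Cxcl2 were the most closely correlated of the 8 genes across libraries, while Cxcl9 and Cxcl10 had different values in the comparison of the fractions. Each is the 220 bases before the RefSeq start (build GRCm38.p6), read 5′ to 3′ on the gene's strand, for Cxcl1 at chr5:90891025-90891244, Cxcl2 at chr5:90903679-90903898, Cxcl9 at chr5:92328080-92328299 and Cxcl10 at chr5:92348890-92349109. Capitals mark matches on either strand to GGGNNNNNCC, a core of the NF-κB consensus, or to GAAANNGAAA, a core of the interferon-stimulated response element.
Cxcl1: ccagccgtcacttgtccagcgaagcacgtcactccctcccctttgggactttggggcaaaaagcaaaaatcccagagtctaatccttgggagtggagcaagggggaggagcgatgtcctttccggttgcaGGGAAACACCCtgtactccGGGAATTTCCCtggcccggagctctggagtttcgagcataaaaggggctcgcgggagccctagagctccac
Cxcl2: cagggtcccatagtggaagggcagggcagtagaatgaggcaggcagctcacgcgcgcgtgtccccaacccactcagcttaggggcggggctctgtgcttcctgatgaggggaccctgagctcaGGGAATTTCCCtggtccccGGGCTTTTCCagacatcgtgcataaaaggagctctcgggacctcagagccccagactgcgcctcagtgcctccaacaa
Cxcl9: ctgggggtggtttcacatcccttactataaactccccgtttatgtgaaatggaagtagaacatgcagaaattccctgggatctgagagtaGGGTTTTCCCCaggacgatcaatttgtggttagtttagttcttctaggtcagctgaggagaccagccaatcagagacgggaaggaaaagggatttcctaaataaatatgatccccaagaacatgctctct
Cxcl10: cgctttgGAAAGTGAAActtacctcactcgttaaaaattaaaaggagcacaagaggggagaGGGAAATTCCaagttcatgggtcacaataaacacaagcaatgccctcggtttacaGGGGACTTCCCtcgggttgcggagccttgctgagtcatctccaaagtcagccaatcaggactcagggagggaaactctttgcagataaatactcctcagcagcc

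The longest run that the Cxcl1 and Cxcl2 stretches share is GGGAATTTCCCTGG, which starts 71 bases before the start of Cxcl1 and 97 bases before that of Cxcl2. Among 32851 promoter windows of 300 bases in the RefSeq table, searched on both strands, the run is in 2, those of Cxcl1 and Cxcl2. Its first part, GGGAATTTCC, is in 29 windows (0.0883%), whereas the looser GGGNNNNNCC is in 50.8%. The run and its first part were searched for after the sequences were seen. Matches to GGGNNNNNCC merged into 2 stretches each in Cxcl1, Cxcl2 and Cxcl10 and 1 each in Cxcl9 and Cxcl12. The Cxcl10 window also holds GAAAGTGAAA, 213 to 204 bases before the start, and GAAANNGAAA is in 3.44% of all windows. The Cxcl14 window holds GAAACAGAAA and one match to TTCNNNGAA, the form of a STAT site (TTCTGAGAA, in 8.3% of windows for the general form). The Cxcl9 window had no match to GAAANNGAAA or TTCNNNGAA. Other forms of interferon-responsive elements were not searched for, so a window without a match is not read as lacking one. Cxcl5 and Cxcl16 had no entry in the table.

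Library totals ran from 12.9 to 35.1, in units of 1e+06 counts. The 8 genes took 0.107% to 0.188% of all counts, of which Cxcl12 supplied 38.6% to 58.1%. Summed RNA of 7 fibroblast markers was high in every library, at 118083 to 167366 CPM (counts per 1e+06 of scaled library size) in PDGFRα- and 87724 to 113221 CPM in PDGFRα+ libraries. Pdgfra RNA itself stood at 652 ± 124 and 597 ± 69.2 CPM (mean ± SD, n = 4 libraries per group here and below). The sort was on surface protein, and Pdgfra RNA does not separate its fractions (edgeR adjusted p = 0.971). In bulk RNA of this kind, fewer cells of a type and less RNA per cell cannot be told apart.

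The fractions were compared with edgeR's quasi-likelihood test over all 15643 genes, with Benjamini-Hochberg adjusted p under 0.05 called. The model with group alone is the main one. The same test with the library number as a block is given beside it, since the authors' deposited comparison fits a model that contains the number. In the model with group alone 1 of 8 CXC chemokine genes was called, Cxcl16 as higher in PDGFRα+ cells, against 0.192% of all tested genes called higher. With the block 3 of 8 were called higher, Cxcl5, Cxcl9 and Cxcl16, against 1.34% of all tested genes. None was called lower in either model (0.0511% and 0.933% of all genes), also none at an unadjusted p under 0.05, and DESeq2 and limma-voom called none lower. For counts by the other rules used here, the shares over all genes were 6.95% with an unadjusted edgeR p under 0.05 with group alone and 11.7% with the block. DESeq2 called 1.57% with group alone and 4.82% with the block, and limma-voom 0.192% and 3.72%. The 8 genes had a median log2 fold change of 0.99 with group alone and 0.80 with the block, beside -0.01 and -0.01 over all tested genes, and 6 of 8 were above 0 in both, beside 49.1% of all tested genes with group alone. These genes were picked with earlier results of the same libraries known, so their share is a description.

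**Figure D1:**
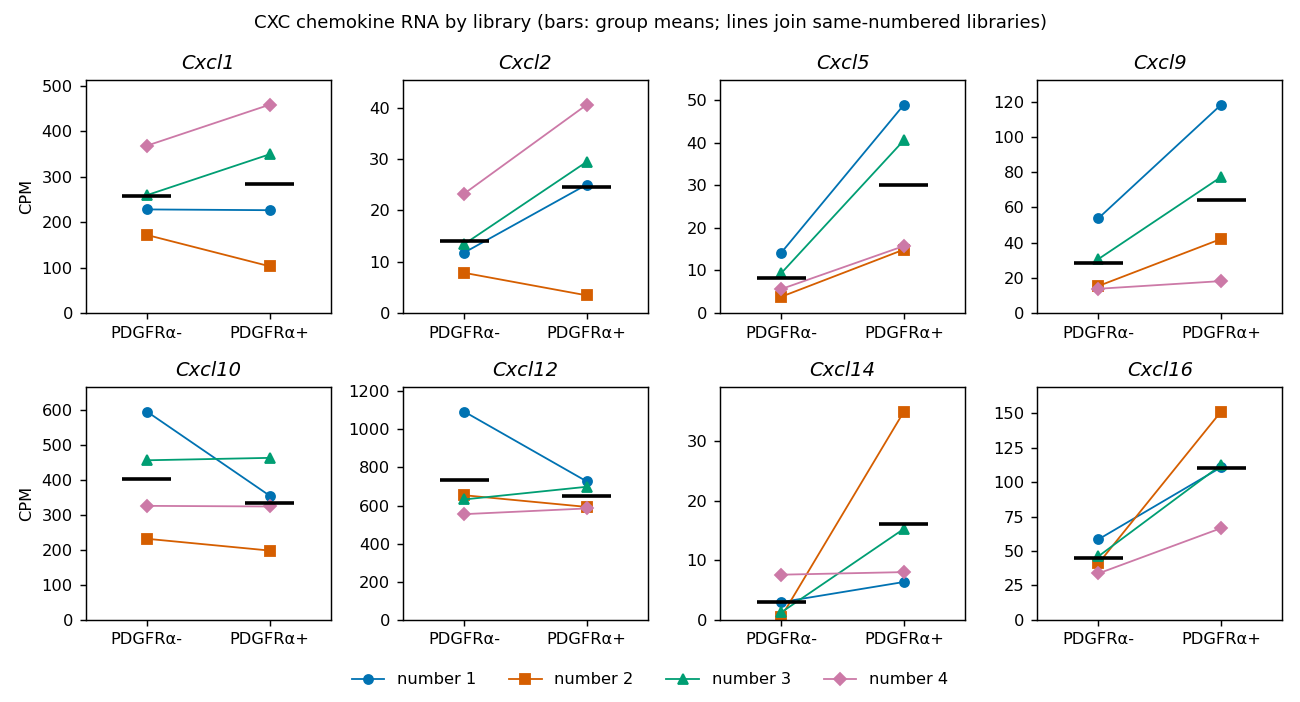
CPM of each CXC chemokine gene in the 4 PDGFRα- and 4 PDGFRα+ libraries; black bars are group means, and lines join libraries with the same number. The 4 PDGFRα+ points lie above all PDGFRα- points for Cxcl5 and Cxcl16 and overlap with them for the other 6 genes.

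Among the neutrophil-attracting ligands, Cxcl5 rose in PDGFRα+ cells in the model with the block but was not called with group alone, and Cxcl1 was called in neither. Cxcl5 stood at 14.2, 3.82, 9.36 and 5.63 CPM in PDGFRα- libraries 1 to 4 and at 49.0, 14.9, 40.6 and 15.7 CPM in PDGFRα+ libraries 1 to 4. The groups did not overlap, as they did for only 1 other member, Cxcl16, and for 5.05% of all tested genes (2.69% higher and 2.36% lower in PDGFRα+ cells), but the lowest PDGFRα+ library was only just above the highest PDGFRα- library. Within a number, the PDGFRα+ library was higher by 3.46, 3.90, 4.34 and 2.80 times. On the log2 scale the fold change was 1.87 ± 0.49 (SE), with a 95% interval from 0.81 to 2.93 and an edgeR adjusted p of 0.224. With the block it was 1.84 ± 0.25, and Cxcl5 was called (edgeR adjusted p = 7.8e-04, 3.65-fold between the means).

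Cxcl1 was the second most abundant of the 8 genes per exon length. It stood at 228, 172, 259 and 368 CPM in PDGFRα- libraries 1 to 4 and at 226, 103, 349 and 458 CPM in PDGFRα+ libraries 1 to 4. The ranges overlapped throughout, libraries numbered 2 were the lowest and those numbered 4 the highest in both fractions, and 2 of 4 PDGFRα+ libraries were above their same-numbered partner. The log2 fold change was 0.15 ± 0.42 (95% interval from -0.82 to 1.11, edgeR adjusted p = 0.991), and 0.00 with the block, with an interval from -0.36 to 0.37. Its sign was not stable, and without PDGFRα+ library 4 the value was -0.18.

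Cxcl2, the neighbour of Cxcl1, was lower in level but moved over a wider range. Its values were 11.8, 7.84, 13.4 and 23.3 CPM in PDGFRα- and 25.0, 3.44, 29.5 and 40.6 CPM in PDGFRα+ libraries 1 to 4. PDGFRα+ library 2 was the lowest of all 8 libraries and the other PDGFRα+ libraries were above every PDGFRα- library. Cxcl2 had a log2 fold change of 0.81 ± 0.62 with group alone and 0.52 ± 0.36 with the block (edgeR adjusted p = 0.929 and 0.664). Without number 2 the blocked value was 1.01, and Cxcl2 was then called (edgeR adjusted p = 0.0407).

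The interferon-induced neighbours Cxcl9 and Cxcl10 gave different values in this comparison. Cxcl9 stood at 53.8, 15.3, 30.6 and 13.8 CPM in PDGFRα- libraries 1 to 4 and at 118, 42.1, 77.3 and 18.1 CPM in PDGFRα+ libraries 1 to 4. The groups overlapped, and both fractions had the same order, with number 1 highest, then 3, 2 and 4. The PDGFRα+ library was higher in 4 of 4 same-numbered pairs, by 2.20, 2.74, 2.52 and 1.32 times. For Cxcl9 the log2 fold change was 1.17 ± 0.64 with group alone (95% interval from -0.32 to 2.66, edgeR adjusted p = 0.852). With the block it was 1.09 ± 0.20 (interval from 0.68 to 1.51), and Cxcl9 was called (edgeR adjusted p = 0.00633). That call was lost without number 1 (adjusted p = 0.0794) and without number 3 (adjusted p = 0.0966), at log2 fold changes of 1.07 and 1.01.

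Cxcl10, the most abundant of the 8 per exon length, stood at 596, 232, 457 and 326 CPM in PDGFRα- and 356, 198, 464 and 324 CPM in PDGFRα+ libraries 1 to 4. Number 2 was lowest in both fractions, the ranges overlapped, and PDGFRα- library 1 was the highest of all. Cxcl10 had a log2 fold change of -0.26 ± 0.31 with group alone and -0.24 ± 0.13 with the block (edgeR adjusted p = 0.970 and 0.538). The blocked 95% interval ran from -0.52 to 0.04. Exons of Cxcl10 overlap Art3 on the other strand. The sources used here do not give the strand setting of the counting, so reads of the 2 genes cannot be told apart.

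Ratios within a library do not depend on scaling between libraries. Relative to Cxcl10, PDGFRα- libraries 1 to 4 had 9.03%, 6.61%, 6.71% and 4.22% as many Cxcl9 counts, against 33.3%, 21.2%, 16.7% and 5.59% for their PDGFRα+ partners. PDGFRα+ libraries 1 to 3 were above every PDGFRα- library, and PDGFRα+ library 4 lay among them. In all 4 same-numbered pairs the ratio was higher in the PDGFRα+ library, as were those of Cxcl5 to Cxcl1 and to Cxcl2. The log2 ratio differed by 1.32 between the groups, with an exact permutation p of 0.114 (2-sided, n = 4 against 4, smallest possible p 0.0286). This test uses group alone and does not use the library number. Cxcl5 had 1.53% to 6.22% as many counts as Cxcl1 among PDGFRα- libraries and 3.44% to 21.6% among PDGFRα+ libraries (log2 difference 1.84, exact permutation p = 0.0857, 2-sided). Against Cxcl2 the log2 difference was 1.38 (exact permutation p = 0.2, 2-sided). The 3 ratios were chosen after their values were seen, and adjusted over them the exact permutation p was 0.171, 0.171 and 0.2.

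The constitutive ligand gene Cxcl12 (chromosome 6, 117168535 to 117181367) had the most counts of the 8. It stood at 1093, 654, 632 and 555 CPM in PDGFRα- and 727, 593, 698 and 585 CPM in PDGFRα+ libraries 1 to 4. Apart from PDGFRα- library 1, all libraries lay between 555 and 727 CPM, and the coefficient of variation in PDGFRα+ cells, 11.1%, was the smallest of the 8 genes. The log2 fold change was -0.17 ± 0.20 with group alone (95% interval from -0.61 to 0.27) and -0.13 ± 0.13 with the block (-0.40 to 0.14). Neither was called (edgeR adjusted p = 0.970 and 0.800), and the intervals leave out differences of 1 log2 unit in either direction. The sign was positive without PDGFRα- library 1, at 0.09.

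Cxcl14 (chromosome 13, 56288643 to 56296551) had the fewest counts over all libraries and the widest range. It stood at 2.97, 0.503, 1.25 and 7.59 CPM in PDGFRα- libraries 1 to 4, with 10 counts in the lowest, and at 6.36, 35.0, 15.3 and 8.02 CPM in PDGFRα+ libraries 1 to 4, with 855 counts in the highest. PDGFRα- library 4 was above PDGFRα+ library 1, so the groups overlapped. The ratio within a number was 2.14, 69.7, 12.3 and 1.06, and thus close to equality in number 4 and very large in number 2. Cxcl14 had a log2 fold change of 2.39 ± 0.81 (95% interval from 0.58 to 4.19, edgeR adjusted p = 0.456) and 2.50 ± 1.09 with the block (edgeR adjusted p = 0.465). The authors' deposited table lists Cxcl14 at 5.82-fold with an adjusted p of 0.00529, and at this threshold it lists 4.82% of its genes with an adjusted p, 2.3% as higher and 2.52% as lower. It lists 4 of the 8 members, Cxcl5, Cxcl9, Cxcl14 and Cxcl16, all as higher. Without PDGFRα+ library 2 the log2 fold change was 1.68, and without number 2 it was 1.5 with the block.

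Cxcl16 (chromosome 11, 70453983 to 70459984, minus strand) was higher in PDGFRα+ cells in both models. It stood at 58.4, 40.9, 46.1 and 33.7 CPM in PDGFRα- and 111, 151, 112 and 66.6 CPM in PDGFRα+ libraries 1 to 4. Each PDGFRα+ library was above every PDGFRα- library, and number 4 was the lowest in both fractions. The ratio within a number was 1.90, 3.70, 2.44 and 1.98. The log2 fold change was 1.30 ± 0.24 (95% interval from 0.78 to 1.82, edgeR adjusted p = 0.0462), and 1.27 ± 0.17 with the block (edgeR adjusted p = 6.3e-04).

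The call of Cxcl16 with group alone was close to the threshold and did not hold without PDGFRα- library 2, 3 or 4 (edgeR adjusted p = 0.167, 0.171 and 0.0711) or PDGFRα+ library 1, 2 or 3 (0.0959, 0.142 and 0.122). The log2 fold change in these 6 fits and without PDGFRα- library 1 or PDGFRα+ library 4 was 1.11 to 1.48. With the block it was called whichever of the 4 numbers was left out (edgeR adjusted p from 4.4e-04 to 0.0196). Exons of Cxcl16 overlap Zmynd15 on the other strand, so its reads are uncertain in the same way as those of Cxcl10.

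**Figure D2:**
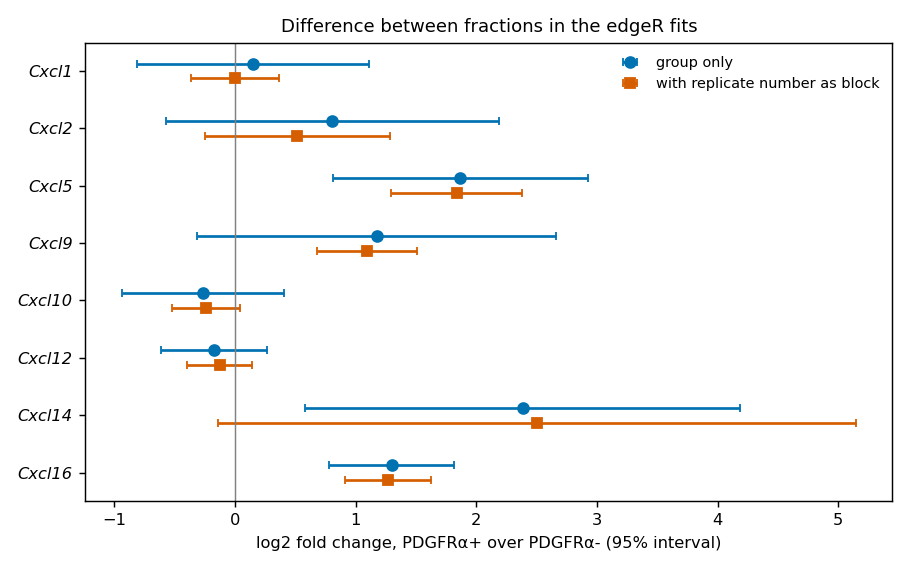
Log2 fold change of PDGFRα+ over PDGFRα- cells with 95% intervals, from edgeR with group alone (circles) and with the library number as block (squares). The blocked intervals are narrower for 7 genes and wider for Cxcl14, and those of Cxcl5, Cxcl9 and Cxcl16 lie above 0.

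In all 4 same-numbered pairs the PDGFRα+ library was higher for Cxcl5, Cxcl9, Cxcl14 and Cxcl16, as it was for 10.3% of all tested genes, and no member was lower in all 4, as 10.2% of genes were. The number itself mattered for several members. In the edgeR test of the number with group in the model, Cxcl9 (adjusted p = 4.4e-04), Cxcl10 (0.00541), Cxcl1 (0.00793) and Cxcl5 (0.0134) passed, 4 of 8, beside 4.28% of all tested genes. Cxcl2, Cxcl12, Cxcl16 and Cxcl14 did not (edgeR adjusted p from 0.0773 to 0.926). The labels do not say what libraries with the same number share.

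**Figure D3:**
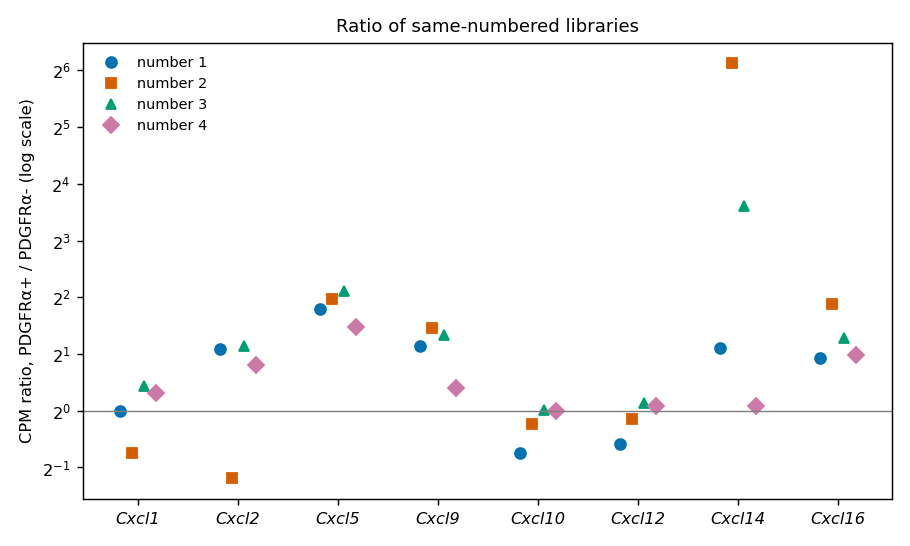
CPM ratio of the PDGFRα+ to the PDGFRα- library of the same number, on a log scale; the grey line is a ratio of 1. The 4 ratios of Cxcl5 lie between 2.80 and 4.34, those of Cxcl14 between 1.06 and 69.7, and number 2 is below 1 for Cxcl1 and Cxcl2.

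Levels of different genes were compared per kilobase of annotated exon (RPKM, mean over 8 libraries). Cxcl10 was at 164 and Cxcl1 at 144, and Cxcl10 was the higher in 6 of 8 libraries. With the longest coding transcript as length Cxcl1 came first, at 284 against 273, so these neighbours in the order are not separated. Cxcl12 followed at 84.6, then Cxcl16 at 25.7, Cxcl9 at 15.3, Cxcl5 at 10.3, Cxcl2 at 9.36 and Cxcl14 at 5.27, and this part of the order was the same with both lengths. Cxcl12 was above Cxcl16 in 8 of 8 libraries, Cxcl16 above Cxcl9 in 7, and Cxcl5 above Cxcl2 in only 4. The 3 most abundant genes, Cxcl10, Cxcl1 and Cxcl12, were those with the smallest estimated log2 fold changes in size, in both models. This is not a trait of their receptors, since Cxcl5 and Cxcl9, of further ligands of CXCR2 and CXCR3, were called higher with the block. With group alone the 95% interval of Cxcl1, from -0.82 to 1.11, includes the estimate for Cxcl2, 0.81, so the order of these differences is not firm.

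Some members followed each other across the 8 libraries. For log2 CPM of Cxcl1 and Cxcl2, Pearson's r was 0.94 and Spearman's rho 0.81 (n = 8 libraries, exact permutation p = 8.9e-04 and 0.0218, adjusted over 28 pairs 0.025 and 0.203). Pearson's r was 0.79 over the 6 libraries left without the 2 farthest from the median of Cxcl1. Cxcl5 and Cxcl9, from separate clusters of chromosome 5, had r = 0.89 and rho = 0.81 (exact permutation p = 0.00427 and 0.0218, adjusted 0.0597 and 0.203) and r = 0.78 over 6 libraries. Within the groups, from deviations from the group means, r was 0.96 for Cxcl1 with Cxcl2, 0.90 for Cxcl5 with Cxcl9 and 0.62 for Cxcl9 with Cxcl10. Cxcl5 was nearly as close to Cxcl10 within the groups (0.87, against 0.34 over all 8 libraries), so it did not follow Cxcl9 alone. Cxcl16 ran against Cxcl1 and Cxcl2 within the groups (-0.76 and -0.72). If libraries of the same number share a source, which the labels do not say, the p-values of these correlations are too small.

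**Figure D4:**
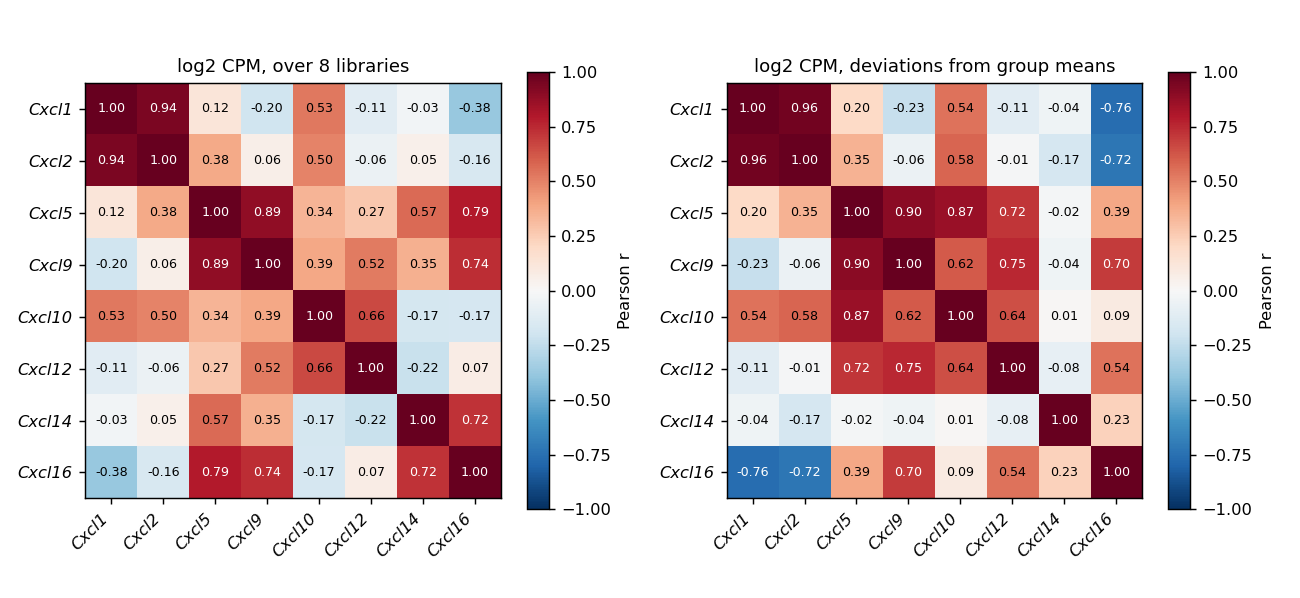
Pearson correlation between CXC chemokine genes of log2 CPM over 8 libraries (left) and of deviations from the group means (right). Cxcl1 with Cxcl2 (0.94 and 0.96) and Cxcl5 with Cxcl9 (0.89 and 0.90) are high in both panels.

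Among the genes with a mean of at least 20 CPM, those most like each member over the 8 libraries were named by Pearson's r of log2 CPM, as a description. For Cxcl16 they were Fhl1 and the fibronectin gene Fn1 (0.99 and 0.98), for Cxcl14 Igfbp3 and Cspg4 (0.97 and 0.96) and for Cxcl5 Gucy1a1 and Hk1 (0.96 and 0.94). For Cxcl9 they were Serpina3g and Esyt1 (0.97 and 0.94), for Cxcl10 Slc25a25 and Zfp36l2 (0.96 and 0.95) and for Cxcl12 Szrd1 and Rplp0 (0.95 and 0.95). Cxcl1 had Asb4 and Fbrsl1 (0.97 and 0.97), and Cxcl2 had Tgif2 and Glis2 (0.98 and 0.97). The search ran over at least 6248 genes and only 8 libraries, in which high values arise easily.

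Of 7 other CXC ligand genes, only Cxcl13, which encodes the B cell attractant of lymphoid follicles, had enough counts to test. It stood at 119, 84.8, 39.8 and 22.9 CPM in PDGFRα- and 135, 32.2, 32.1 and 25.0 CPM in PDGFRα+ libraries 1 to 4 (log2 fold change -0.25 ± 0.73, edgeR adjusted p = 0.992). Library 1 was the highest in both fractions and the ranges overlapped. Cxcl3 had 33 counts in PDGFRα- library 3, 1 in library 4 and 0 elsewhere, Cxcl15 at most 54, Pf4 at most 64, Cxcl11 at most 11 and Cxcl17 at most 2. Ppbp had 0 in every library.

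The receptor genes of the family were low, as far as counted. Cxcr1 and Cxcr3 had 0 counts in all libraries, Cxcr2 at most 2 and Cxcr6 at most 1. In this table a count of 0 allows up to 3 counts, or 0.086 to 0.234 CPM, but Myd88, a broadly expressed signalling adaptor, was also at 0 throughout. A 0 is therefore not read as absence. Cxcr4 (3.62 ± 5.83 and 2.59 ± 1.86 CPM), Cxcr5 (1.37 ± 1.09 and 0.491 ± 0.481 CPM) and the atypical receptor gene Ackr1 (1.07 ± 1.37 and 0.596 ± 0.701 CPM) were tested and not called (edgeR adjusted p from 0.965 to 0.990, and from 0.898 to 0.963 with the block).

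Ackr3, the scavenging receptor of CXCL12, was the receptor gene with the most RNA. It stood at 10.4, 6.69, 16.3 and 12.4 CPM in PDGFRα- and 20.3, 31.3, 23.0 and 26.1 CPM in PDGFRα+ libraries 1 to 4. Every PDGFRα+ library was above every PDGFRα- library, as for 2.69% of all tested genes. The log2 fold change was 1.14 ± 0.30 (95% interval from 0.49 to 1.78, edgeR adjusted p = 0.211) and 1.18 ± 0.30 with the block (edgeR adjusted p = 0.0522), so it was not called. DESeq2 called it with group alone and with the block, and limma-voom with the block. The authors' deposited table lists it at 2.25-fold with an adjusted p of 0.0124.

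Of 6 genes of proteases that shed or cleave chemokines, 0 were called in either model (edgeR). At an unadjusted p under 0.05 there were 2 with group alone (6.95% of all genes), Adam10 above 0 and Mmp9 below 0 (log2 fold changes 0.44 and -3.94). Mmp9 was low and uneven, at 0 to 25.6 CPM in PDGFRα- and 0.041 to 0.891 CPM in PDGFRα+ libraries. With the block there were 3 (11.7% of all genes), which added Dpp4, below 0 (-1.63). DESeq2 with the block called 1 of the 6, Mmp9, as lower (4.82% of all genes), and DESeq2 with group alone and limma-voom called 0. Mmp2 and Mmp14, the most abundant, had log2 fold changes of 0.20 ± 0.16 and -0.07 ± 0.15. Adam10, named after its values were seen as the gene of a sheddase of CXCL16, stood at 54.1 ± 10.8 and 73.3 ± 9.50 CPM (log2 fold change 0.44 ± 0.19, edgeR adjusted p = 0.636, and 0.239 with the block).

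Of 15 tested genes of the interferon γ response, the list that bears on Cxcl9 and Cxcl10, 0 were called in either model (edgeR), and 0 had an unadjusted p under 0.05 with group alone. With the block 4 had one (11.7% of all genes), Ifngr1 (log2 fold change 0.50), Psmb8 (0.54) and Gbp7 (0.37) above 0 and Irgm1 (-0.31) below 0. DESeq2 and limma-voom with the block called Ifngr1, a receptor subunit gene, as higher (4.82% and 3.72% of all genes), and with group alone they called 0. The median log2 fold change was 0.20, and 0.13 with the block, and 11 and 10 of 15 were above 0. Jak1 and Irf1, the kinase and transcription factor genes with the highest levels, had log2 fold changes of 0.00 and -0.17. Of 16 tested genes of interleukin-1, interleukin-17, TNF and Toll-like receptors and the NF-κB early response, edgeR called 0 with group alone and 1 with the block, as lower, beside 0.933% of all genes. This was Nfkbiz, which encodes the nuclear NF-κB cofactor IκBζ, at 587 ± 71.0 and 360 ± 135 CPM (log2 fold change -0.80 ± 0.17 with the block, edgeR adjusted p = 0.0381, and 0.490 with group alone). It was lower in the PDGFRα+ library of all 4 pairs (10.2% of all genes), and the groups did not overlap (2.36% of all genes in this direction). An unadjusted edgeR p under 0.05 was found for 2 genes with group alone and 6 with the block (6.95% and 11.7% of all genes), of which 1 and 2 were above 0. DESeq2 and limma-voom with the block each called Ptgs2 higher and Il6 and Nfkbiz lower (4.82% and 3.72% of all genes), and with group alone 0. Icam1, which encodes an adhesion molecule for leukocytes, had a log2 fold change of -0.25 ± 0.22. The list's median was -0.05, and -0.06 with the block.

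Macrophages, endothelial cells and neutrophils can express several of these chemokines, so their markers are given beside the results. The summed level of 11 leukocyte and macrophage markers was 47.7 to 184 CPM in PDGFRα- and 37.2 to 79.7 CPM in PDGFRα+ libraries. The Itgam entry used was at 0 in all. Another entry of the same name, with overlapping exons on the same strand, was not used, so this 0 is not read as absence. Of 9 tested, edgeR called 0 in either model, and 2 (Ptprc and Csf1r, both below 0) and 1 (Csf1r) had an unadjusted p under 0.05 with group alone and with the block (6.95% and 11.7% of all genes). DESeq2 in both models and limma-voom with the block called 1, Csf1r, as lower (1.57%, 4.82% and 3.72% of all genes). The sum of 8 endothelial markers was 77.8 to 623 CPM and 60.7 to 168 CPM. Their median log2 fold change was -1.28, and -0.63 with the block. Of 7 tested, edgeR called 0 in either model, with 1 and 3 at an unadjusted p under 0.05 (6.95% and 11.7% of all genes). DESeq2 and limma-voom with the block each called Kdr, Tek and Lyve1 lower (4.82% and 3.72% of all genes). In edgeR Cdh5 and Vwf were above 0 with the block (log2 fold changes 0.40 and 0.08) and below 0 with group alone. The sum of 4 neutrophil markers did not pass 1.21 CPM in any library. The sum of 8 epithelial markers was 3.26 to 34.2 CPM and 2.42 to 8.02 CPM, and that of 4 pericyte markers 750 to 1513 CPM and 671 to 1182 CPM. Of these 4, Cspg4, which is among the genes most like Cxcl14, was called higher with the block (1.34% of all genes). Rgs5, Notch3 and Kcnj8 were below 0 (log2 fold changes -0.22, -0.41 and -0.69, and -0.21, -0.06 and -0.95 with the block). Smooth muscle markers summed to 264 to 1317 CPM and 294 to 892 CPM. Markers of enteric glia, interstitial cells of Cajal and mesothelium did not pass 25.6 CPM in any library. DESeq2 with the block also called Krt8 (epithelium), Actg2 (smooth muscle) and Kit and Ano1 (interstitial cells of Cajal) lower (4.82% of all genes). The leukocyte and epithelial medians were lower in PDGFRα+ cells (log2 fold changes -0.99 and -1.57). In number 1, however, the leukocyte sum was the higher in the PDGFRα+ library, at 79.7 against 63.0 CPM. That PDGFRα+ library also had the highest Cxcl5 and Cxcl9 of all 8. The highest leukocyte sum of all 8, 184 CPM, was in PDGFRα- library 4. That library had the lowest Cxcl9 of all 8, 13.8 CPM, and Cxcl5 at 5.63 CPM. The fibroblast markers had a median of -0.41, and 3 of 7, Col1a1, Col1a2 and Col3a1, were called lower with the block (0.933% of all genes). At an unadjusted edgeR p under 0.05, 3 were lower with group alone and 5 with the block (6.95% and 11.7% of all genes), and 0 higher. DESeq2 called 2 lower with group alone, Col1a2 and Col3a1, and 4 with the block (1.57% and 4.82% of all genes). Limma-voom called 0 with group alone and 5 lower with the block (3.72% of all genes). The part of these differences in the chemokine values was not tested.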

How the data were processed

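RNA of sorted small intestinal stromal cells was sequenced from SMARTer Stranded Total RNA-Seq Pico libraries. Per the submitters' processing notes, cutadapt 3.4, STAR 2.7.3a, featureCounts 2.0.1 and DESeq2 were used with GRCm38 (mm10). The sources used here do not give parameters or the strand setting. The deposited table holds raw counts per gene and library. It also holds the authors' scaled counts (a rounded score, not used for tests), fold change ratio, log2 fold change, p-value and adjusted p-value, and DESeq2 dispersions.

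Raw counts were filtered with filterByExpr, scaled by TMM and tested with edgeR 4.0.16 (R 4.3.3), with standard errors taken from the fold change and the F statistic. DESeq2 1.42.0 and limma-voom (limma 3.58.1) were alternatives. The authors' deposited dispersions lay within 8.7e-04% of a DESeq2 model of number and group over 29254 genes, while a model of group only was up to 7498% away. RPKM used GENCODE M21 exon lengths, and 53620 of 53801 identifiers matched. Promoters of 6 of 8 members were in the RefSeq table.

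The members and gene lists were chosen with earlier results of these data known. Besides all members, other ligands and receptors, genes of the other lists were named if called in either model, and otherwise the 2 with the highest mean CPM; exceptions are marked or had an unadjusted p under 0.05. No libraries were identical, and all pairs differed by more than sampling noise. Analyses were tested on simulated data. The lowest count of a member was 10, for Cxcl14, which is where counting error is largest.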

Additional observations from a re-analysis of the deposited data

Results flagged for a closer look

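Values of 58 groups of 4 libraries were screened for 1 library that stands apart from the other 3, which chance alone gives in about 1 of 20 groups. None of the 8 CXC chemokine genes was among the 7 found. Cxcl13 was at 135 CPM in PDGFRα+ library 1 and at 25.0 to 32.2 CPM in the other PDGFRα+ libraries. The same library had the highest summed leukocyte and macrophage markers of its group, 79.7 CPM against 37.2 to 40.5 CPM. Among PDGFRα- libraries, however, library 4 had the highest such sum, 184 CPM, and the lowest Cxcl13, 22.9 CPM. A link between the 2 was not tested. Cxcr4 was at 12.3 CPM in PDGFRα- library 4 and at 0 to 1.55 CPM in the other PDGFRα- libraries, and summed endothelial markers in that library were 623 CPM against 77.8 to 141 CPM. Mmp14 was at 852 CPM in PDGFRα- library 1 and at 650 to 671 CPM in the others. PDGFRα+ library 4 had 8.02 CPM of summed epithelial markers against 2.42 to 3.36 CPM, and 13.4 CPM of mesothelial markers against 0.041 to 0.904 CPM.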

How the results depend on the processing

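The choice of model moved the number of calls more than the members' fold changes. Over all genes, 30 were called higher and 8 lower with group alone, 209 and 146 with the replicate block, 156 and 116 with DESeq2, 167 and 110 without a filter on low counts, 386 and 423 with DESeq2 and the block, and 301 and 281 with limma-voom and the block. Leaving out 1 library gave 7 to 39 higher and 0 to 11 lower, and leaving out number 1, 2, 3 or 4 with the block 124, 178, 77 and 185 higher and 72, 103, 22 and 115 lower. All 38 genes called with group alone were among the 355 called with the block. Of the members, 1 was called higher with group alone, 3 with the block, 2 with DESeq2, 0 with limma-voom, 3 without a filter, 0 to 1 without 1 library, 2 to 4 with the block without 1 number, 4 with DESeq2 and the block and 3 with limma-voom and the block. The DESeq2 and limma-voom fits with the block were chosen after seeing the data.

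Cxcl5 was called with the replicate block (1.84), DESeq2 (1.86), no filter (1.88), DESeq2 and the block (1.83) and limma-voom and the block (1.84), with the block without number 1, 2, 3 or 4 (1.85, 1.80, 1.74 and 1.95), and in 0 of 8 fits without 1 library, at 1.53 to 2.28. Cxcl9 was called with the block (1.09), with DESeq2 and the block (1.08), with limma-voom and the block (1.17), and with the block without number 2 (0.98) or 4 (1.31), and in 0 of 8 fits without 1 library, at 0.69 to 1.70. Cxcl14 was called without a filter (2.40) and with DESeq2 and the block (2.54), and ranged from 1.68 to 3.34 without 1 library and from 1.5 to 3.49 with the block without 1 number. Cxcl16 was not called with limma-voom (1.29), and ranged from 1.11 to 1.48 without 1 library and from 1.07 to 1.38 with the block without 1 number. Cxcl2 was 1.01 with the block without number 2. Cxcl1 turned negative with limma-voom (-0.021), DESeq2 and the block (-0.0090), without PDGFRα+ library 4 (-0.18) and with the block without number 3 (-0.14) or 4 (-0.10), over ranges of -0.18 to 0.42 and -0.14 to 0.25. Cxcl12 turned positive without PDGFRα- library 1 (0.089), over a range of -0.28 to 0.089, and with the block without number 1 (0.024). Apart from the numbers of genes and libraries used, the cause was not tested.

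Libraries of the same number deviated together with r = 0.23, 0.18, 0.02 and 0.25 over all tested genes, below the minimum of 0.1 for number 3, and the best match of 7 of 8 libraries had the same number. For the 6249 genes at 20 CPM or more on average, chosen after seeing the data, r was 0.58, 0.32, 0.28 and 0.61. The pairing is thus a hint from the data and from the authors' model, not from the labels. The lowest count of any member in a library was 10, for Cxcl14.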
